A study of Mus musculus with 9 samples.

Results

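The muscleblind genes Mbnl1 and Mbnl2 were knocked down together in N2A cells, a mouse neuroblastoma line, and the library made from those cells was set beside its control. The comparison was taken from the labels and holds 2 of the 9 libraries of the series, 1 a side. Cells received a SMARTpool of small interfering RNAs (siRNAs) against both genes, or a non-targeting pool (siNT), and polyA RNA was sequenced 48 hours later. A library made after knockdown of Nacc1, which encodes a transcriptional regulator, belongs to the same first experiment and has the same control library. The second experiment holds 6 libraries, 2 each after siNT, Srrm4 knockdown and Zfp871 knockdown, and its pairs show here how far 2 libraries of 1 group lie apart. No library of the first experiment has a replicate, so sizes and 95% counting intervals are given, with no test. The series is about transcription factors as regulators of splicing networks, and this pair of libraries shows which exons differ between the muscleblind knockdown library and its control.

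Muscleblind proteins carry zinc fingers that bind RNA, with a preference for a GC step between pyrimidines. Bound within or upstream of an exon they tend to block its inclusion, and bound downstream they tend to promote it. They are best known from myotonic dystrophy, where expanded repeat RNA sequesters them in muscle and brain and exons return to a fetal pattern. They also act on exons of their own transcripts.

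Mbnl1 (ENSMUSG00000027763) and Mbnl2 (ENSMUSG00000022139) were both lower in the library labelled as their knockdown. Mbnl1 stood at 124 CPM (counts scaled to library size with TMM factors; 95% exact Poisson interval 121 to 127) in control and at 45.2 (43.4 to 47.1) in the knockdown, a log2 fold change of -1.46 (-1.53 to -1.39). Mbnl2 stood at 65.7 CPM (63.7 to 67.7) and 18.2 (17 to 19.4), a log2 fold change of -1.85 (-1.96 to -1.75). Both knockdown values lie below every other library of the series, though the tables of the 2 experiments were scaled separately. In the second experiment Mbnl1 lay between 102 and 162 CPM and Mbnl2 between 41.5 and 67.2. Neither fall reached absence. In a bulk culture, fewer cells with the transcript and less transcript per cell cannot be told apart. Per length, the authors' deposited cRPKM values (by its name a corrected RPKM, with reads scaled to length and depth; the labels do not describe the correction) put Mbnl1 at 22.2 in control and 8.42 in the knockdown, and Mbnl2 at 14.4 and 4.15. Mbnl3 had 7 counts in control and 5 in the knockdown, too few to compare.

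An exon shared by the 2 targeted genes was included more often in what was left of their transcripts. This 54-nt coding exon is present in both genes with nearly the same letters, shown here because its inclusion was measured in both. Each sequence is the exon in GENCODE M21 (build GRCm38), on the transcript strand, with capitals at the bases that differ between the pair, 8 of 54.
Mbnl1 54 nt, chr3:60614683-60614736, plus strand: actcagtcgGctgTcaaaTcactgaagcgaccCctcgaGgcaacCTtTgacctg
Mbnl2 54 nt, chr14:120395712-120395765, plus strand: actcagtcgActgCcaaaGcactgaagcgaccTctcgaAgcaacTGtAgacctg

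Inclusion is given as percent spliced in (PSI), the inclusion reads of an exon as a percent of its inclusion and exclusion reads. The Mbnl1 exon was at 59% in control (95% Clopper-Pearson interval 53.6 to 64.1, 353 reads) and at 96.3% (90.7 to 99, 107 reads) in the knockdown. The Mbnl2 exon was at 51.6% (43.3 to 60, 147 reads) and 80.5% (64.8 to 92, 37 reads), where the knockdown library has the coverage class VLOW in the authors' deposited table. The intervals are apart in both genes. In the 6 libraries of the second experiment the Mbnl1 exon lay between 63.3% and 71.7% and the Mbnl2 exon between 36.7% and 52.4%. Other exons of the 2 genes did not pass the size rule of 20 points with intervals apart: the 36-nt exon of Mbnl1 was at 88.6% and 91.5%, that of Mbnl2 at 8.07% and 12%, and the 111-nt exon of Mbnl1 at 16.9% and 13.4%, with overlapping intervals each time. The 95-nt exon of Mbnl1 was at 91.9% (88.9 to 94.4) and 98.4% (94.2 to 99.8). An intron of each gene passed the same rule. Retention of a 687-nt intron of Mbnl1 (mm9 chr3:60425381-60426067) went from 18.2% (12.4 to 25) to 42.5% (31.5 to 54.1), with 5.01% and 8.24% in the other controls. Retention of a 6548-nt intron of Mbnl2 (mm9 chr14:120788386-120794933) went from 13.6% (6.97 to 24.4) to 48.6% (29.9 to 70.1) on 71 and 26 reads, with 4.5% and 4.91% in the other controls.

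Across the transcriptome, cassette exons were the feature that moved most beyond the spread between libraries of 1 group. The size rule for an exon asked for 20 or more reads in each library of the first experiment, PSI values 20 or more points apart, and 95% intervals without overlap. Of 36175 exons that could be compared, 117 passed as lower in the knockdown (0.323%) and 76 as higher (0.21%), 0.534% in all. Between the 2 libraries of 1 group the same rule passed 72 exons for the second experiment's controls, 48 for the Srrm4 knockdown and 51 for the Zfp871 knockdown. At a difference of at least 30 points the knockdown passed 52 lower and 31 higher exons, and the pairs passed 20, 13 and 14. Of the lower exons 113 of 117 differed by more than every replicate pair of the same exon, and of the higher exons 70 of the 73 that could be measured in such a pair. The same held for 8834 of 35612 compared exons and 5561 of 15684 with a PSI from 2% to 98% in 1 of the 2 libraries. Exons past the rule were picked for a large difference, so their high share follows in part from the rule. Of the 193 exons, 144 carry the mark for differential splicing in the authors' deposited table and 49 have no entry there. The authors marked 590 exons in all. Their mark compares the same 2 libraries, so it is not independent of the values here, and the sources used here do not give its rule.

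**Figure D1:**
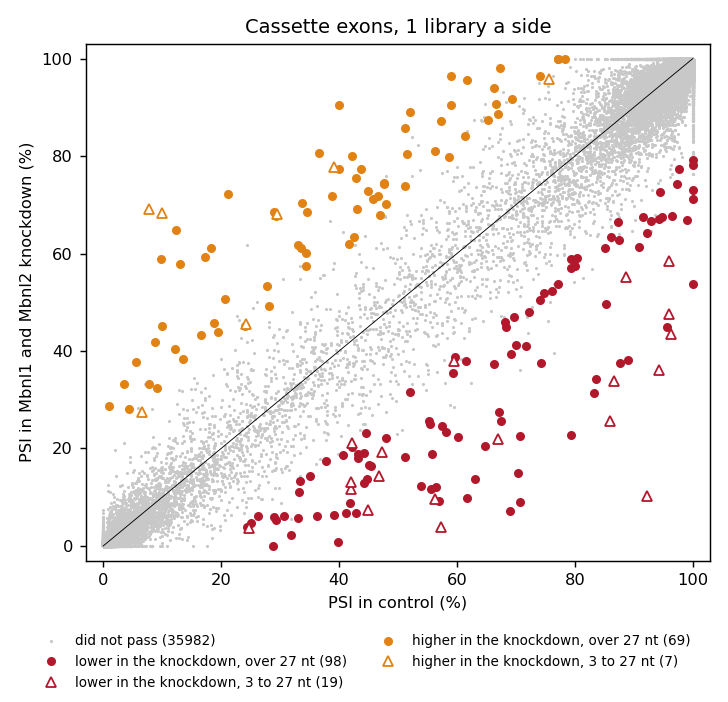
PSI of every compared cassette exon in the control library (x axis, %) against the Mbnl1 and Mbnl2 knockdown library (y axis, %), 1 point an exon, with exons past the size rule coloured and exons of 3 to 27 nt as open triangles. The 117 lower exons start mostly from middle to high inclusion and the 76 higher exons from low to middle inclusion.

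Exons that fell started from a median PSI of 66.2% in control and stood at a median of 25% in the knockdown. Exons that rose went from a median of 39% to 69.7%. None of the 25715 exons at 90% or more in control could rise by 20 points, and 22 of them fell. Of the 618 exons between 30% and 50%, 30 fell and 24 rose, 4.85% and 3.88% of that band.

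Exons past the rule were shorter, and more often of a length divisible by 3, than exons at large. Among the lower exons 74.4% had a length divisible by 3, and 67.1% of the higher ones, against 40.3% of all compared exons and 40.1% of the 15992 with a PSI from 2% to 98% in 1 of the 2 libraries, called alternative here. Microexons, defined as 3 to 27 nt long, made up 16.2% of lower and 9.21% of higher exons, against 2.62% of alternative exons. Put the other way, 26 of 719 compared microexons passed (3.62%), 19 lower (2.64%) and 7 higher (0.974%). Of all compared exons of any length 0.534% passed, 0.323% lower and 0.21% higher. Among the microexons 419 were alternative, and of alternative exons of any length 1.21% passed, 0.732% lower and 0.475% higher. The share of alternative exons that fell was 5% at 3 to 15 nt, 4.25% at 16 to 27 nt, 1.86% at 28 to 51 nt and 0.358% at 200 nt or more. Alternative exons had a median PSI of 93.1% in control, beside 66.2% for lower and 39% for higher exons. The groups were not matched for PSI, so a part of starting inclusion in these contrasts was not tested. These are descriptions of 1 pair of libraries, with no test.

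**Figure D2:**
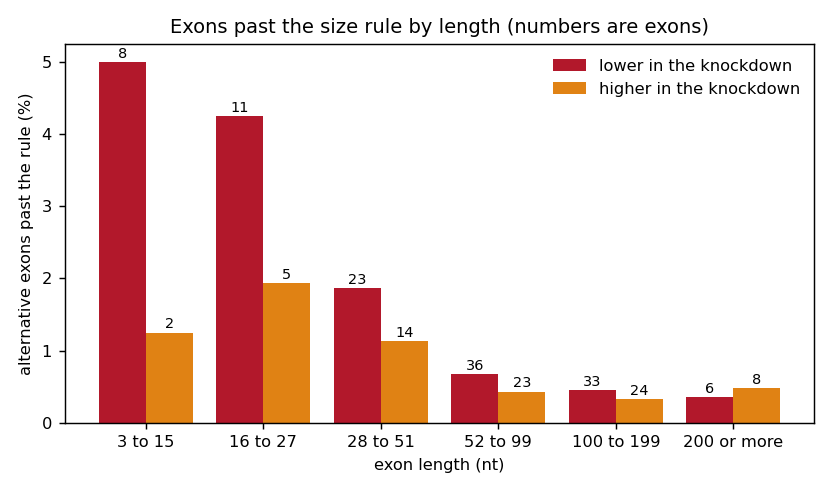
Share of alternative cassette exons past the size rule (y axis, %) by exon length in nt (x axis), lower and higher in the knockdown as separate bars, with the number of exons above each. The share of lower exons is 5% at 3 to 15 nt and 0.358% at 200 nt or more.

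The host genes of lower exons had a median log2 fold change of 0.04 and those of higher exons of -0.04. Of 116 and 76 exons whose host gene had enough counts, 0 and 2 lay in a gene whose level changed 2-fold or more, and those 2 are the 54-nt exons of Mbnl1 and Mbnl2. Over all compared exons, 46 of 35934 lay in such a gene, so a count of 0 among 116 does not stand apart from exons at large.

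Short exons were frequent among the falls, and a few coding ones are printed, each whole, to show how little sequence the inclusion change concerns. Sequences are from GENCODE M21 (build GRCm38), read on the transcript strand, and were matched by gene, exon length and the distances to both flanking exons. Capitals mark the muscleblind-type steps, spelled TGCT or else TGCC or else CGCT or else CGCC, searched on the transcript strand only and with overlaps counted. The exons from Dst to Atp2c1 fell in the knockdown and the last 3 rose.
Dst 18 nt, chr1:34296742-34296759, plus strand: ttcttcctgggaaatcag
Numa1 42 nt, chr7:102002295-102002336, plus strand: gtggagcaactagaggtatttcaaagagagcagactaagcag
Pcnt 21 nt, chr10:76403624-76403644, minus strand: tgcgtccagttagacgaggag
Ank2 12 nt, chr3:126979256-126979267, minus strand: taccatccccag
Celsr3 15 nt, chr9:108838760-108838774, plus strand: gattgcggggtacag
Baz2b 27 nt, chr2:59933412-59933438, minus strand: gagttggagaggcatagactagatatg
Mllt4 21 nt, chr17:13848355-13848375, plus strand: gaagtagaccaggttgatcag
Tead1 12 nt, chr7:112856053-112856064, plus strand: gtaacaagcatg
Picalm 24 nt, chr7:90194273-90194296, plus strand: aatggcatgcattttccacaatac
Incenp 12 nt, chr19:9883192-9883203, minus strand: tgcagctttgtt
Atp2c1 12 nt, chr9:105493543-105493554, minus strand: aTGCTagaaaag
Tmem184b 21 nt, chr15:79363658-79363678, minus strand: TGCTgacgtacggcccatacg
Clasp1 27 nt, chr1:118523321-118523347, plus strand: gatccagatcTGCTaacccTGCTggtg
Mef2a 24 nt, chr7:67244521-67244544, minus strand: tcggaggaagaggaattggagttg

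Of the printed exons that fell, Atp2c1 holds 1 such step and the others none. Of those that rose, Clasp1 holds 2, Tmem184b 1 and Mef2a 0. Over all matched exons of 9 to 27 nt, 2 of 16 lower and 2 of 5 higher exons held at least 1, against 18.3% of the 409 compared. Between 28 and 60 nt it was 25% of 28 lower and 35% of 20 higher exons, against 41.2% of 3074. Between 61 and 150 nt it was 77.3% of 44 lower and 87.5% of 32 higher exons, against 73.3% of 18458. Matches per 100 nt in that longest class were 1.90 in lower, 2.41 in higher and 1.46 in all compared exons. Only the exons were searched, not the introns beside them.

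The largest difference was in Dst, which encodes dystonin, a linker between actin, microtubules and intermediate filaments. Its 18-nt exon was at 92.3% in control (87.3 to 95.9, 170 reads) and at 10.2% (6.04 to 15.3, 180 reads) in the knockdown, a difference of -82.1 points (Newcombe interval -86.9 to -74.8). The controls of the second experiment, separate siNT libraries of the same line, had it at 86.9% and 89.5%. The 3 controls are together and the knockdown lies far from all of them.

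Exons of other cytoskeletal linker and motor genes also fell. Of 325 compared exons in 29 genes of that list, chosen with results known, 9 in 8 genes were lower and 0 higher, 2.77% of its exons against 0.534% of all compared exons; the median difference over the list was 0 points, as over most lists. Ank2 encodes ankyrin-B, an adaptor between membrane proteins and spectrin, and its 12-nt exon went from 57.3% (48 to 65.7) to 3.87% (0.947 to 8.59). Spna2 encodes alpha spectrin, and its 60-nt exon went from 69.2% (67 to 71.3) to 39.3% (36.7 to 41.9) on 1776 and 1395 reads. In Kif13a, a kinesin motor gene, the 39-nt exon went from 39.8% (30.1 to 50.6) to 0.753% (0.0347 to 7.4). Kif1b, another kinesin gene, had its 42-nt exon at 41.9% (37.7 to 46.1) and 8.81% (6.55 to 11.8). The spectrin-binding genes Epb4.1l2, with exons of 63 and 147 nt, and Epb4.1l3, with an exon of 117 nt, and the myosin gene Myo9b make up the rest of the 9.

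In genes of microtubules and the spindle 5 of 222 exons were lower and 2 higher, 3.15% against 0.534% of all compared exons. Numa1 encodes a protein of the spindle poles, and its 42-nt exon went from 70.7% (66.7 to 74.2, 581 reads) to 8.95% (6.41 to 12, 438 reads). Pcnt encodes pericentrin of the centrosome, and its 21-nt exon went from 94.2% (86.7 to 98) to 36.1% (25.7 to 48.1). Clasp1, which encodes a protein of growing microtubule ends, moved the other way: its 27-nt exon went from 39.2% (32 to 46.6) to 77.7% (71.2 to 83.5).

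Tau, encoded by Mapt, and its relative MAP2, encoded by Mtap2, bind microtubules through repeats, and a 93-nt exon in each gene fell. The Mtap2 exon was singled out after its values were seen. The Mapt exon was at 42.9% in control (39.1 to 46.7, 674 reads) and at 6.81% (4.95 to 8.97, 651 reads) in the knockdown, where the second experiment's controls had 43.5% and 34.9%. An 87-nt exon of Mapt went from 31.9% (28.7 to 35.3) to 2.2% (1.21 to 3.53). Both Mapt differences exceed every replicate-pair difference of the same exon, which reach 9.39 and 3.17 points. The Mtap2 exon was at 40.6% (33.3 to 48.1) and 18.8% (11.8 to 26.8). Its fall of 21.9 points is smaller than the 36.2 points between the 2 controls of the second experiment, at 60.8% and 24.7%.

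Some genes exchanged 1 exon for another. In 9 genes at least 1 exon fell and another rose, a group formed after the values were seen, and in Dnm2, Actn4 and Tmem87b the exons of the pair are of the same length. Dnm2 encodes dynamin 2, the GTPase that cuts endocytic vesicles from the membrane, and Actn4 encodes alpha-actinin 4, which crosslinks actin. Their paired exons are printed with capitals at the bases that differ (GENCODE M21, GRCm38), the exon that fell first.
Dnm2 139 nt, chr9:21478899-21479037, plus strand: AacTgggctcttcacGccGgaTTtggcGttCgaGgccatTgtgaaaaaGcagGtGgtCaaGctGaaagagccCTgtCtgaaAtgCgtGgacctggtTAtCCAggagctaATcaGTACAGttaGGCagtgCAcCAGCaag
Dnm2 139 nt, chr9:21480407-21480545, plus strand: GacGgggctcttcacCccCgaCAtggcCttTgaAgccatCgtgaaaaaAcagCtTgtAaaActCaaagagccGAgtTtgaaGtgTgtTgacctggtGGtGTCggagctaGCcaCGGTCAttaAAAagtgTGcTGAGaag
Actn4 86 nt, chr7:28911490-28911575, minus strand: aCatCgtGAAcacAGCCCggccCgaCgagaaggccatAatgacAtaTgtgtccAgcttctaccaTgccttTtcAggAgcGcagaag
Actn4 86 nt, chr7:28909903-28909988, minus strand: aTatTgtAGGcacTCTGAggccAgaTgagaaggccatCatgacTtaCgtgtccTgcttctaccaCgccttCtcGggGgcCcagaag

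The Dnm2 exons share 68.3% of their bases and the Actn4 exons 75.6%. In Dnm2 the first exon went from 61.7% (55 to 67.7) to 9.88% (4.96 to 16.8), and the other from 40% (34.8 to 45.3) to 90.5% (87.3 to 93.1). In Actn4 the first went from 96.4% (95.3 to 97.3, 1373 reads) to 67.7% (64.4 to 70.8, 857 reads), and the other from 3.45% (2.26 to 5.08) to 33.3% (29.9 to 37). Within each gene the loss of the first exon and the gain of the other are of like size. Cyfip1, which encodes a subunit of an actin regulatory complex, showed the same with exons of 154 nt, at 94.3% and 67.1%, and 148 nt, at 13.6% and 38.3%. The other genes with exons in both directions included Anks1, Dclk2, Prune2 and Ubr4.

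Among the 15 largest falls, Itga6, which encodes integrin alpha 6 of laminin receptors, lost a 130-nt exon (mm9 chr2:71691591-71691720), from 68.9% (66.1 to 71.7, 1073 reads) to 7.08% (4.73 to 10, 398 reads). Its length is not divisible by 3. A 3-nt exon of Cyth1, which encodes an exchange factor for ARF GTPases, went from 86% (75.7 to 93.6) to 25.7% (14.6 to 40.3). The cadherin gene Celsr3 had its 15-nt exon at 96.3% (91 to 99) and 43.4% (34.1 to 53.8), and the kinesin gene Kifc3 its 27-nt exon at 86.6% (80.7 to 91.2) and 33.8% (25.2 to 42.8). The remaining falls of this group, in Arhgef12, Mdm1, Bcas1, St3gal3, Crtc3 and Tbc1d23, were of 50.2 to 56.7 points. For all 15 exons the controls of the second experiment lie on the control's side of the knockdown value.

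The rises were led by Dclk2, a doublecortin-like kinase gene, whose 13-nt exon went from 7.76% (3.28 to 14.2) to 69.2% (56.3 to 80.4). Next came the 9-nt exon of Tacc2, which encodes a centrosomal protein, at 10% (6.65 to 14.8) and 68.3% (62 to 74.3). Map3k4, a stress kinase gene, had a 156-nt exon at 12.3% (7.75 to 19) and 64.8% (56.5 to 72.6). Exons of 2 diacylglycerol kinase genes rose, a 63-nt exon of Dgki from 21.1% to 72.2% and a 126-nt exon of Dgkh from 42.2% to 80%. In Numb, which encodes an inhibitor of Notch signalling, a 147-nt exon went from 29% (16.8 to 42.3) to 68.6% (58.9 to 78.1). The others were Dennd3, on 28 and 27 reads, and Socs7, Myt1, Pla2g6, Adam15, Tmem184b, Golga4 and Clasp1, with rises of 38.5 to 49 points.

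**Figure D3:**
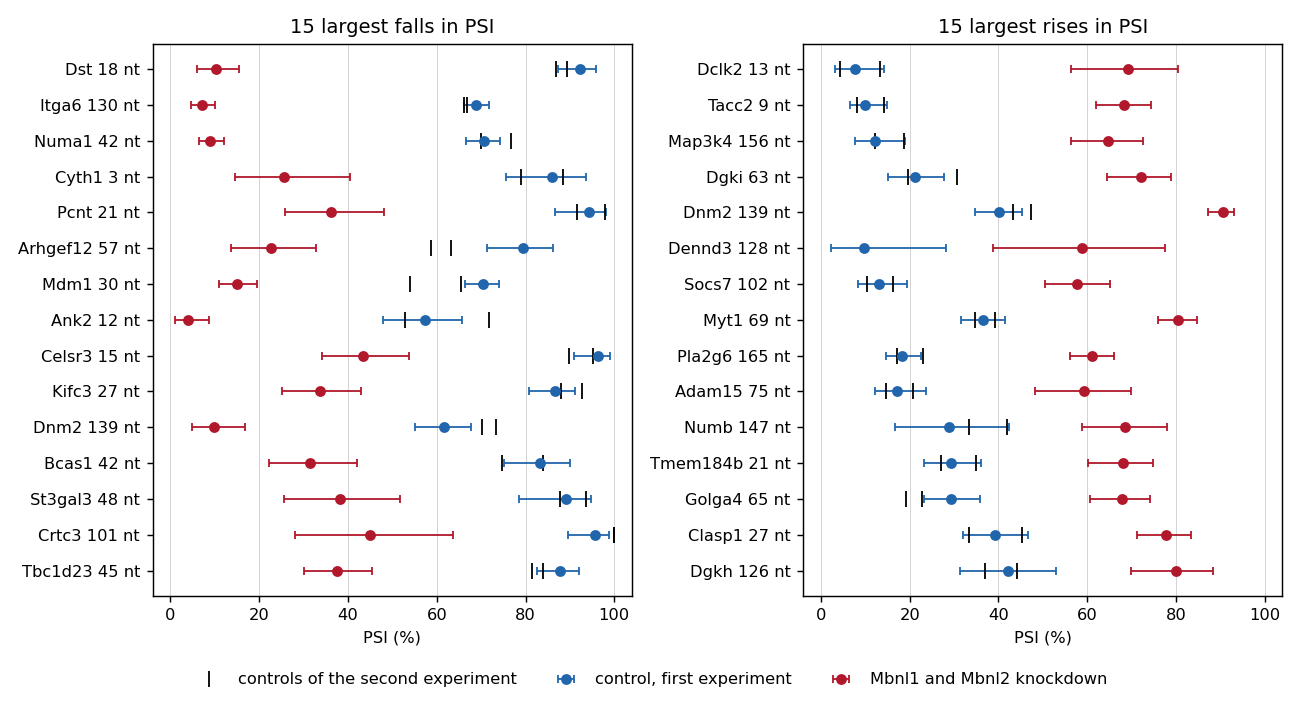
PSI (x axis, %) of the 15 exons with the largest falls and the 15 with the largest rises, in the control (blue) and the Mbnl1 and Mbnl2 knockdown (red) with 95% Clopper-Pearson intervals, and in the 2 controls of the second experiment (black ticks). Every tick lies on the blue side, as for Dst at 86.9% and 89.5% beside 92.3%; some lie outside the control's interval, as for Arhgef12 at 58.6% and 63.2% beside 79.4%, and Dennd3 has too few reads there.

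Further microexons passed the rule. Tead1 encodes a transcription factor of the Hippo pathway, and its 12-nt exon went from 96% (92.7 to 98.1) to 58.4% (50.6 to 65.5). Picalm encodes a clathrin assembly protein, and its 24-nt exon went from 44.9% (41.1 to 48.6, 702 reads) to 7.4% (5.35 to 9.89, 555 reads). In Mllt4, which encodes afadin of cell junctions, the 21-nt exon went from 56.3% (50.7 to 61.7) to 9.55%, and in Baz2b, a chromatin gene, the 27-nt exon from 95.9% (89.8 to 99.2) to 47.6%. Those 4 exons differed by more than every replicate pair of the same exon. The other falls were in Ap1b1, Atp2c1, Catsper2, Ccdc66, Gpatch8, Heatr5a, Incenp, Mtss1l and Trrap, of 21 to 45.1 points. Mef2a, a transcription factor gene, had its 24-nt exon at 24.2% (18.5 to 30.6) and 45.6% (38.3 to 52.7), and exons of Cacnb1 and Zfp511 rose by 20.2 and 20.9 points.

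Some of these values rest on the choice of control. In Gpatch8 the control of the first experiment had the 18-nt exon at 42%, the controls of the second at 14.7% and 16.1%, and the knockdown at 11.7%. For App, the gene of the amyloid precursor, the 168-nt exon was at 59.3% (57.5 to 61.1, 2995 reads) and 35.5% (33.5 to 37.6, 2116 reads), with 43.8% and 41.5% in the other controls. Over all exons past the rule, the controls of the second experiment lay a median of 5.66 to 6.18 points from the control of the first. With control library a of the second experiment as the comparator, 115 of 117 falls and 71 of 73 rises that could be measured kept their sign, and 81 and 50 stayed at 20 points or more. With control library b it was 113 of 117 and 73 of 74, and 75 and 54.

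Host genes of exons known from muscleblind studies of muscle, heart, brain and stem cells form a list of 49 genes. Of 355 compared exons in 38 of them, 13 were lower and 7 higher, 5.63% of the list's exons against 0.534% of all compared exons. The list was written with results of these data known and holds Mbnl1 and Mbnl2 themselves, so its share is a description. Beside the exons given above, it holds a 93-nt exon of Bin1, which encodes a protein that bends membranes, at 44.9% (41.8 to 47.9, 1061 reads) and 72.8% (69.5 to 75.9, 775 reads). A 63-nt exon of Csnk1d, the casein kinase 1 delta gene, was at 52.1% (49.5 to 54.6) and 31.5% (29 to 34.1), and the 39-nt exon of Spag9, a scaffold of stress kinases, at 36.2% (30.9 to 41.8) and 6.07% (3.41 to 10.1). The 27.6 points of the 192-nt exon of Foxp1 are smaller than its widest replicate pair, at 33.7.

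Other lists had smaller shares. Host genes of neural microexons, in which Srrm4 acts, had 5 lower and 3 higher of 609 exons of any length, 1.31%. Only the 12-nt exon of Ank2 among those past the rule is a microexon. Genes of endocytosis and membrane traffic had 3 and 3 of 250, 2.4%. Both shares are above the 0.534% of all compared exons, and both lists count the Dnm2 pair once each way. Lists of splicing factors, which leave out Mbnl1 and Mbnl2, had 0 of 113 exons of tissue-regulated factors, 0 of 63 of SR proteins and 0 of 77 of hnRNP proteins past the rule. Against 0.534% of all exons, lists of this size are too small for a count of 0 to stand apart. In level, 0 of 26 tissue-regulated factors, 0 of 19 SR protein genes and 0 of 27 hnRNP genes with enough counts changed 2-fold or more, which is likewise near the 1.02% of all genes. Their median log2 fold changes were -0.00, 0.01 and -0.08.

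Retained introns and alternative splice sites moved less clearly. Of 90996 introns 108 passed the same rule (0.119%), 45 lower (0.0495%) and 63 higher (0.0692%), where the replicate pairs passed 79, 36 and 37. In Epb4.1l2, between the 2 exons that fell, retention of the 1815-nt intron (mm9 chr10:25213436-25215250) went from 9.68% (170 reads) to 53.6% (53 reads), with 1.69% and 3.47% in the other controls. The other large rises were in Dgkq (20.2% to 74.8%), 2810055F11Rik (37.3% to 86.2%), Plekhg2 (10.1% to 57.9%) and Bahcc1 (14.3% to 54.3%). The 5 largest falls were in Rab36, Celsr3, Vav2, Cd97 and Pdzd7, by 45.8 to 66.7 points on 20 to 70 reads a library. Of these only the Vav2 intron could be measured in a control of the second experiment. It was at 37.8% in control library b there, beside 89.7% in the first experiment's control and 36.7% in the knockdown, so its fall rests on the choice of control. Of the 28049 acceptor sites 14 passed (0.0499%), 9 lower (0.0321%) and 5 higher (0.0178%), against 13 to 17 between replicate libraries. Of the 19384 donor sites 25 passed (0.129%), 12 lower (0.0619%) and 13 higher (0.0671%), against 3 to 14. The acceptor count is no larger than that spread.

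Splice sites of 1 exon exchange reads, so a fall and a rise in 1 gene are often the same event. A donor pair 105 nt apart in Baz2b moved by 58 points, the more distal site falling from 84.7% to 26.7%. In Slc39a11, a zinc transporter gene, a donor went from 61.2% (289 reads) to 27.1% (308 reads), and its partner 21 nt away rose by the same 34.2 points. In Pbrm1, a chromatin remodelling gene, 1 donor fell by 42.9 points and another rose by 50. The other large changes of donors were in Jarid2 (-51.4 points), Dock6 (42.5 either way), Dennd2a (46.1) and Zfp239 (38.9). Those of Jarid2, Dennd2a and Zfp239 rest on 20 to 36 reads a library, in coverage class LOW. Replicate libraries differed there by up to 25.3, 4.76 and 19 points, and the Dock6 donors could not be compared between replicates. Among acceptors the largest falls were in Ptma, Cep70, Synrg, Jmjd6 and Wdsub1 and the rises in Synrg, Depdc5, Wdsub1, Acsl4 and Rasal2, by 21.9 to 53.1 points. The Ptma acceptor, at 100% on 26 reads and 46.9% on 29, differed by 68.6 points between replicate libraries. The falling Synrg site went from 36.2% to 0%, but was also at 0% in library a of the Srrm4 knockdown. Replicate libraries differed at that site by up to 22.1 points. The Cep70 site rests on 31 and 25 reads, in coverage class LOW.

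Fewer genes differed in level than between replicate libraries. A gene had to reach 50 counts in either library and to lie 1 or more apart on the log2 scale. By that rule 88 of 11604 genes were higher (0.758%) and 30 lower (0.259%), 1.02% in all. The same rule passed 357 genes between the 2 controls of the second experiment, 326 between the Srrm4 and 168 between the Zfp871 knockdown libraries. The count for the knockdown lies below all 3 of these. Of the 44 genes past the rule with at least 200 counts in a library, 36 differed by more than any replicate pair, 20 of them lower. These genes too were picked for a large difference.

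**Figure D4:**
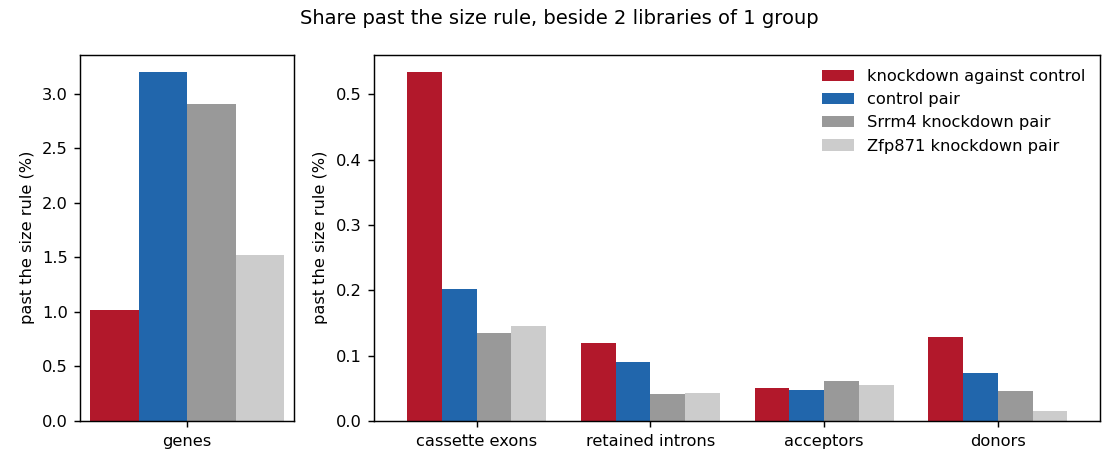
Share of compared features past the size rule (y axis, %) for genes, cassette exons, retained introns, acceptors and donors (x axis), in the Mbnl1 and Mbnl2 knockdown against its control and between the 2 libraries of each group of the second experiment. Cassette exons stand at 0.534% with every pair at 0.202% or less, and genes at 1.02% with pairs at 1.52% to 3.20%.

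The named falls in level included smooth muscle and actin genes, at low levels. Acta2, smooth muscle alpha-actin, had 240 counts in control and 22 in the knockdown (log2 fold change -3.06, -3.86 to -2.53), Myl9, a myosin light chain, 265 and 49, and Actg2, smooth muscle gamma-actin, 247 and 52. Acta2 and Actg2 also differed by up to 2.56 and 2.84 between replicate libraries, and Myl9 by up to 1.00. At higher levels, Anxa6, which encodes a calcium-dependent membrane-binding protein, went from 272 to 97.9 CPM (-1.48, -1.52 to -1.43), where replicate pairs differed by at most 0.17. Chchd3, a gene of the mitochondrial inner membrane, went from 133 to 55.7 CPM (-1.26, -1.32 to -1.20), and Pdap1 from 292 to 135 (-1.11, -1.15 to -1.07). In the Nacc1 library, against the same control, Chchd3 was at -0.02, Pdap1 at 0.09 and Ccng1 at 0.27 on the log2 scale. Most of the other named falls were lower there too: Anxa6 was at -1.05, Acta2 at -1.36, Myl9 at -1.38, Actg2 at -2.31, Npy at -1.90, Cnn2 at -2.20, Timp3 at -1.60, Tgfb3 at -1.56, Pnpla3 at -1.43, Nab1 at -1.24, 2810055F11Rik at -1.46 and Slc16a12 at -0.36. The other named falls were Npy, 2810055F11Rik, Slc16a12, Pnpla3, Cnn2, Tgfb3, Nab1, Timp3 and Ccng1, at -1.46 to -1.04. For Tgfb3, at -1.10, the widest replicate pair was larger, at 1.24.

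Named rises were in genes of low level. Avil, which encodes the actin-binding protein advillin, went from 2.78 to 10.5 CPM (log2 fold change 1.90, 1.66 to 2.17), where replicate pairs differed by at most 0.23. Camk2b, a calcium-dependent kinase gene of neurons, went from 4.09 to 12.3 CPM (1.58, 1.37 to 1.8), with up to 1.03 between replicates, and Cpne5 from 1.49 to 5.41 (1.83, 1.51 to 2.21). Dcx, the doublecortin gene of migrating neurons, had 43 and 124 counts, and the spectrin gene Spnb1 22 and 69. The others were Lpin3, Sstr3, Als2cl, Pacsin1, Car6, Padi2, Cd68, Rab44, Hcrtr1, Padi3, Tmem179, Lipa, 9030617O03Rik and Pipox, at 1.07 to 1.59. In the Nacc1 library Avil was at 0.96, Camk2b at -1.57 and Cpne5 at -0.61. Also higher there were Padi2 (1.44), Hcrtr1 (1.07), Cd68 (0.82), Lipa (0.80), Dcx (0.62), Lpin3 (0.53), Tmem179 (0.44) and Als2cl (0.19). Lower there were Pacsin1 (-2.04), Car6 (-1.48), Sstr3 (-1.40), Padi3 (-1.31), Spnb1 (-0.43), Pipox (-0.36), 9030617O03Rik (-0.23) and Rab44 (-0.22). For Padi2, Padi3, Tmem179 and Pacsin1 the widest replicate pair was larger than the change, at 1.22 to 2.21. For Cd68, Sstr3, Dcx and Spnb1 no replicate pair could be compared.

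**Figure D5:**
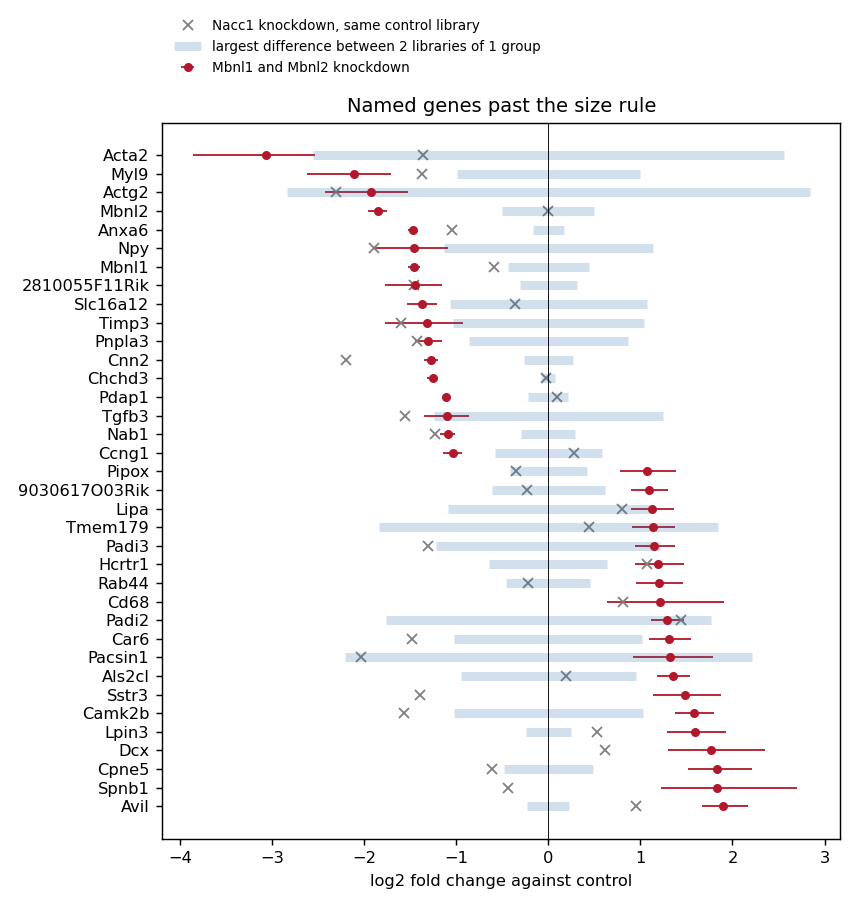
Log2 fold change against control (x axis) of the named genes past the size rule (y axis), with 95% counting intervals in red, the Nacc1 knockdown against the same control library as crosses, and the largest difference between 2 libraries of 1 group, in either sign, as blue bands. Mbnl1 at -1.46 and Mbnl2 at -1.85 lie outside their bands, Actg2 at -1.93 lies inside, and genes without a band could not be compared between replicates.

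Most lists of pathway genes had no member past the rule, and a few leaned to 1 side by small amounts. Over all 11604 genes the median log2 fold change was -0.01, and 52.8% of them were below 0. Of 32 genes of cholesterol and fatty acid synthesis 31 were below 0, with a median of -0.41 and none past the rule; the medians between replicate libraries were -0.15 to -0.00. Idi1, an enzyme gene of isoprenoid synthesis, stood at 290 CPM in control and 184 in the knockdown, and Fdps, of the same pathway, at 491 and 313. Of 42 DNA replication genes 40 were below 0, with a median of -0.20, or -0.13 with unscaled totals. Their medians between replicate libraries were 0.09 to 0.15, so in size the unscaled median lies within that range. All medians between replicate libraries are of library b against library a, and their sign only follows the letters. Of 65 cytosolic ribosomal protein genes 64 were below 0, with a median of -0.16, or -0.10 with unscaled totals, and medians of -0.12 to -0.03 between replicate libraries. The 27 glycolysis genes had a median of -0.20, nearer 0 than all 3 medians between replicate libraries, which were -1.05 to -0.67. Unscaled totals moved the median of all genes to 0.05 and that of the cholesterol list to -0.34.

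All 12 neuroblastoma markers had enough counts, 0 passed the rule, and their summed level was 4409 CPM in control and 4103 in the knockdown; within them Dbh, of noradrenergic cells, had a log2 fold change of -0.78. Summed immune markers stood at 0.62 and 1.82 CPM, with Ptprc at 0 counts in both libraries and Cd68 at 33 and 65. Summed mesenchymal markers stood at 7.94 and 5.48 CPM, with Col3a1, Prrx1, Twist1 and Twist2 at 0 in both and 1 of the 3 measured markers, Acta2, past the rule. Acta2 is part of that sum, at 3.82 CPM in control and 0.426 in the knockdown. Its fall is larger than that of the sum, so the other mesenchymal markers together did not fall. Summed glial markers stood at 7.73 and 7.94 CPM, with Olig1 among the markers at 0 in both. Summed epithelial markers stood at 38.6 and 40.8 CPM with 0 of 3 measured past the rule. Summed muscle markers were higher in the knockdown, at 274 CPM in control and 334 in the knockdown, mostly from Myh3, with 4 of 5 measured markers above 0, a median log2 fold change of 0.40 and 0 past the rule; Myod1 was at 0 in both. Whether the levels of the other markers have a part in the falls of Acta2, Myl9 and Actg2 was not tested.

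The Nacc1 knockdown was compared with the same control library, so its differences are not independent of those above and are given side by side only. In that library Mbnl1 stood at 82.7 CPM (80.4 to 85) and Mbnl2 at 65.6 (63.6 to 67.7). Its PSI was 56.8% for the Dst exon, 16.6% for Itga6, 19.3% for Numa1, 5.55% for Picalm and 21.3% for the 93-nt exon of Mapt. It was 84.8% for the 54-nt exon of Mbnl1 and 79.1% for that of Mbnl2, 82.6% for the second Dnm2 exon and 73.3% for Clasp1. For Cyth1 it was 86.2% beside 86% in control, and for Tmem184b 30.7% beside 29.4%. The 42-nt exon of Dlg2 was at 8.11% there, at 0.944% in control and at 28.7% in the Mbnl1 and Mbnl2 knockdown.

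The knockdown library held 50086176 counts and its control 63715449, the Nacc1 library 61038964, and those of the second experiment 44186088 to 61159670. The control library is therefore the deepest and the knockdown the shallowest of the first experiment. The labels name either TriZol or a Qiagen kit for RNA extraction and do not tell which library had which.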

How the data were processed

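PolyA RNA of N2A cells was sequenced 48 hours after siRNA transfection. CASAVA 1.8, edgeR (both with no role) and the build mm9 are named in the submitters' processing notes; splicing was quantified with vast-tools per the series design text, version not given in the sources used here. Per gene, the authors deposited raw counts, cRPKM (a form of RPKM) and log2 fold changes. The authors deposited PSI in percent, and the values here were recomputed from the inclusion and exclusion reads of each library's quality cell. Events with a recomputed PSI more than 1 point from the deposited PSI in either compared library were not compared.

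Counts were scaled in R 4.3.3 with edgeR 4.0.16 (TMM over the 3 libraries of the table, prior count 2). Intervals are 95% exact Poisson (CPM), conditional exact binomial (log2 fold changes), Clopper-Pearson (PSI) and Newcombe (PSI differences). They cover counting error only: these reads carry no molecular identifiers and so may repeat a molecule, and 2 junctions feed 1 inclusion count. With 1 library a side there is no p-value. The 1114 entries without counts were left out, and 21 columns of per-library values were not used. The 2 libraries of a group in the second experiment carry letters that the labels do not tie to replicate numbers.

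Text names Mbnl1, Mbnl2 and Mbnl3, the 15 largest rises and falls among genes with at least 200 counts past the rule, list members past it, all Mbnl1 and Mbnl2 exons, the 15 largest exon rises and falls, microexons and muscleblind host-gene exons past the rule, and the 5 largest introns and splice sites each way. The 21 gene lists, 6 marker lists and rules were chosen with earlier results of these data known. Exon sequences were matched to GENCODE M21 for 30025 of 36175 exons. Some items that these rules name are not reported here. The scripts were tested on simulated data.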

Additional observations from a re-analysis of the deposited data

How the results depend on the processing

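No paired analysis was possible because each group compared holds 1 library. Exon counts stayed within 1.5 times of the 117 lower and 76 higher exons with at least 10 or 50 reads, with 20 reads in the compared libraries only, with the deposited PSI, with coverage class OK or SOK and without the interval condition. At 30 points they were 52 and 31. With a control library of the second experiment, chosen after seeing the data, 75 falls (library b) and 50 rises (library a) stayed past 20 points. Gene counts were 264 higher and 86 lower with at least 10 counts, 709 and 232 with no minimum, 26 and 6 at a log2 fold change of 1.5, and 9 and 12 with the authors' deposited log2 fold change, which covers fewer genes; DESeq2 size factors, total counts and a prior count of 0.5 stayed within 1.5 times. In the authors' deposited table Mbnl1 is at -1.38 and Mbnl2 at -1.74, Myl9 moves from -2.11 to -1.38 and Actg2 from -1.93 to -1.26, and Npy (-0.98) and Ccng1 (-0.94) drop below the size rule. With at least 50 reads, 24 introns were lower, and splice sites were 9 lower and 9 higher. No named gene changed sign under the gene settings. Named exons were set only against their deposited PSI, which rests on the same reads, so no reversal could appear there. With control library b of the second experiment the Ptma acceptor reversed, at 31.4% there and 46.9% in the knockdown. Exons under 20 reads were not compared.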

Other observations

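Ion channel and synaptic genes outside the named groups also held exons past the rule; they were picked after their values were seen. A 60-nt exon of Cacna1c, an L-type calcium channel gene, was at 61.6% in control (47.4 to 73.5, 59 reads) and at 95.6% (84.5 to 99.4, 44 reads) in the knockdown, where the 6 libraries of the second experiment lay between 40.4% and 60%. A 50-nt exon of Ryr2, a calcium release channel gene, was at 40% (23.9 to 57.9) and 77.4% (62 to 87.7) on 35 and 47 reads. A 42-nt exon of Dlg2, a synaptic scaffold gene, was at 0.944% (0.0237 to 5.1) and 28.7% (18.5 to 40.1), and at 1.19% or less in all libraries of the second experiment where it was measured.

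Tpm1, which encodes a tropomyosin, included a 79-nt exon at 5.49% (3.45 to 8.32, 380 reads) in control and 37.8% (31.5 to 44.3, 233 reads) in the knockdown, with 2.96% to 8.36% in the second experiment. Scarb1, a lipoprotein receptor gene, had a 129-nt exon at 57% (53.4 to 60.7, 731 reads) and 9.31% (6.45 to 12.6, 370 reads). Lrp8, another lipoprotein receptor gene, had a 39-nt exon at 67.5% (61.8 to 73.1) and 25.7% (19.5 to 32.6), where the second experiment held it at 75.7% to 86.2%. In kinase genes of the Ste20 group an 87-nt exon of Tnik was at 59% (52.1 to 65.6) and 90.5% (85.6 to 94.2), and a 225-nt exon of Map4k4 at 56.3% (53.7 to 58.9) and 81.1% (78.8 to 83.1).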
